A study of Mus musculus with 6 samples.

Results

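The 10 genes described here encode the machinery that the transcription factor NF-kB uses to turn itself on and off. They comprise the subunit genes Nfkb1, Rel, Rela, Nfkb2 and Relb, the inhibitor genes Nfkbia, Bcl3, Nfkbid and Nfkbiz, and Tnfaip3. They were taken by symbol, from a table of 49315 genes, as genes of one pathway, by a rule that uses no measured value. All 10 were among the 13572 genes that passed the filter on low counts. Their RNA was measured by bulk RNA-seq in regulatory T cells (Tregs) of the skin and of the skin-draining lymph nodes (SDLNs), with 3 libraries of each.

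All 6 libraries came from Foxp3-GFP mice at postnatal day 9, with no treatment named, whose reporter makes a fluorescent protein in cells that express Foxp3, the factor that defines Tregs. Each library held the cells of 3 pooled animals, and the gate took live CD45+ CD4+ cells bearing the reporter. The libraries are called A, B and C after the columns of the count table, values of a tissue are given in that order, and no letter could be tied to a numbered sample. Nothing in the sources says that a letter marks the same animals in both tissues.

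NF-kB is a family of dimers that wait in the cytoplasm, bound to inhibitory IkB proteins, until a receptor signal has the inhibitor destroyed. In the canonical pathway the dimers are built from p50 (made from Nfkb1), RelA and c-Rel, and one of the first genes they switch on is Nfkbia, which encodes the inhibitor IkBalpha and so closes a loop. In the non-canonical pathway the product of Nfkb2 is trimmed to p52, which pairs with RelB. Tregs depend on this family, since c-Rel is needed for Foxp3 to be switched on in the thymus, and the same genes are induced strongly in activated myeloid cells.

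Before the values, the limits of the skin libraries matter for every gene below. The skin libraries held 3748669 to 11741784 counts each and the SDLN libraries 47243498 to 116158706, and 2911 to 5317 genes reached 1 CPM (a count scaled to a library of 1000000) in skin against 12397 to 13002 in SDLNs. Foxp3 had 0, 330 and 1 counts in the skin libraries, and Cd4 had 0, 1861 and 2, so that only skin Tregs B held both defining markers above a floor of 3 counts. Cd3g, a chain of the T cell receptor complex, was well above that floor in all 3 (607 to 888 CPM). It was still lower there than in every SDLN library (1132 to 1209 CPM). Cd3e, another chain of the complex, had 0, 1757 and 2646 counts in the skin libraries. Skin Tregs A thus had no count of Foxp3, Cd4 or Cd3e. A list of 10 Treg and T cell genes summed to 5118 to 8129 CPM in skin and 9359 to 9675 CPM in SDLNs. Of these 10 genes, 7 were over the floor in every skin library. A list of 15 myeloid genes, among them Cd74, Lyz2 and Csf1r, summed to between 34251 and 60789 CPM in skin and to between 437 and 773 CPM in SDLNs. For that list, 13 of the 15 genes were over the floor in every skin library. A list of 11 genes that tissue digestion is known to induce, such as Fos and Dusp1, summed to between 8562 and 26000 CPM in skin and between 1371 and 1498 CPM in SDLNs. Skin Tregs A had the highest sum of both lists. Of the other cell types looked for, 4 keratinocyte genes were at 0 in skin, 5 B cell genes summed to at most 2.66 CPM, 3 endothelial genes to at most 25.9 CPM and 4 fibroblast genes to at most 90.6 CPM there. In the SDLN libraries these lists summed to 7.14 to 9.59, 55.8 to 90.3, 139 to 173 and 1.25 to 7.56 CPM. The part of myeloid RNA or of digestion in the differences below was not tested, and in bulk samples fewer cells of a type cannot be told apart from less RNA per cell.

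Because NF-kB acts back on the genes that control it, the stretch before the start of each gene was searched for the letters that NF-kB prefers. The motif was spelled as GGGANNCCCC, GGGANNCTCC, GGGANNTCCC, GGGANNTTCC, GGGGNNCCCC, GGGGNNCTCC, GGGGNNTCCC and GGGGNNTTCC, read on both strands, with overlapping matches joined. RefSeq promoter windows on GRCm38.p6, of which the 250 bases before the start were searched, were at hand for 7 of the 10 genes, and 5 of these held at least one match in a window (71.4%). Over all genes with a window the share was 2225 of 27025 (8.23%). The 5 genes were Rel, Nfkb2, Nfkbia, Nfkbid and Tnfaip3, while none was found for Rela or Bcl3. No entry matched Nfkb1, Relb or Nfkbiz. The matches of Nfkbid are not shown. The windows below are those of Rel, Nfkbia and Tnfaip3, which were among the genes higher in skin, and of Rela as a subunit with no match. They are written 5′ to 3′ on the strand of the gene with matches in capitals. Where an annotated exon reached into one of these 4 windows, the bases within it were left off.

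Rel, chr11:23770971-23771219, minus strand: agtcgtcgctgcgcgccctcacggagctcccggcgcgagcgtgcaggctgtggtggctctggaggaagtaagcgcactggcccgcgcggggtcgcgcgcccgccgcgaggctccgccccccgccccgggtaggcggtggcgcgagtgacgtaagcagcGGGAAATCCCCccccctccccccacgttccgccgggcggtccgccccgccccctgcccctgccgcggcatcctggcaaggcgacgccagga
Nfkbia, chr12:55492648-55492897, minus strand: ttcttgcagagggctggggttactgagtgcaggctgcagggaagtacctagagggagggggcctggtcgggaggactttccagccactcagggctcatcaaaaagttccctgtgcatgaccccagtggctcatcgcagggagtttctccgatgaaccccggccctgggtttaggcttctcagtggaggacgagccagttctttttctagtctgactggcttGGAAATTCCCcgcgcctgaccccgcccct
Tnfaip3, chr10:19015411-19015547, minus strand: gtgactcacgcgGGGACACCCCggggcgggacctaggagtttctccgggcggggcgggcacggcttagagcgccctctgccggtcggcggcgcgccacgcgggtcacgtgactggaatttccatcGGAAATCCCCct
Rela, chr19:5637291-5637482, plus strand: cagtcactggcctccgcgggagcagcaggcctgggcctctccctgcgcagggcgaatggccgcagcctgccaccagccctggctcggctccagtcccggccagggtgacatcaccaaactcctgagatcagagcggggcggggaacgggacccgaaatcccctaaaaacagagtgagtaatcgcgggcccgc

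The match of Rel lies 92 to 82 bases before the start, and that of Nfkbia 29 to 20 bases before it. Tnfaip3 holds a pair, at 125 to 116 and at 12 to 3 bases. Its RefSeq start is downstream of the annotated one, so the stretch printed lies within the annotated gene, outside its exons. Nfkb2 also holds a pair within its first window, at 39 to 29 and at 11 to 2 bases, which are shown as short stretches that lie within an annotated exon.

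Nfkb2, chr19:46304693-46304712, plus strand: gtcacGGGAATTCCCCccct
Nfkb2, chr19:46304721-46304736, plus strand: cgaaaGGGGCTTTCCc

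Matches are letters and not measured binding sites. As the values below show, they occur before the RefSeq starts of genes that were higher in skin and of a gene that was nearly absent there.

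In the comparison of skin with SDLN Tregs, 4 of the 10 genes were higher in skin at an edgeR adjusted p under 0.05 (Rel, Nfkbia, Nfkbiz and Tnfaip3), 2 were lower (Nfkb2 and Relb) and 4 were not called (Nfkb1, Rela, Bcl3 and Nfkbid). Over all 13572 genes tested, 1.04% were called higher and 45.3% lower. Every skin library stood above every SDLN library for 5 of the 10, against 2.39% of the genes tested, and below for 2 of the 10, against 53.6%. The median log2 fold change (skin over SDLN) was 1.24 over the 10 genes and -2.21 over all genes tested, or -1.34 with the genes at 0 throughout a tissue set to the fold that a floor of 3 counts per library allows. Calls of lower expression were thus common in this table and calls of higher expression rare. Of the 6142 genes called lower, 5801 had 3 counts or fewer in all 3 skin libraries. The filter on low counts can be passed through the libraries of a single tissue. Nfkb2 and Relb, at 4 counts or fewer in each skin library, passed it through the SDLN libraries. With at least 10 counts asked of every library, neither gene was tested and 0.645% of all genes were called lower.

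**Figure D1:**
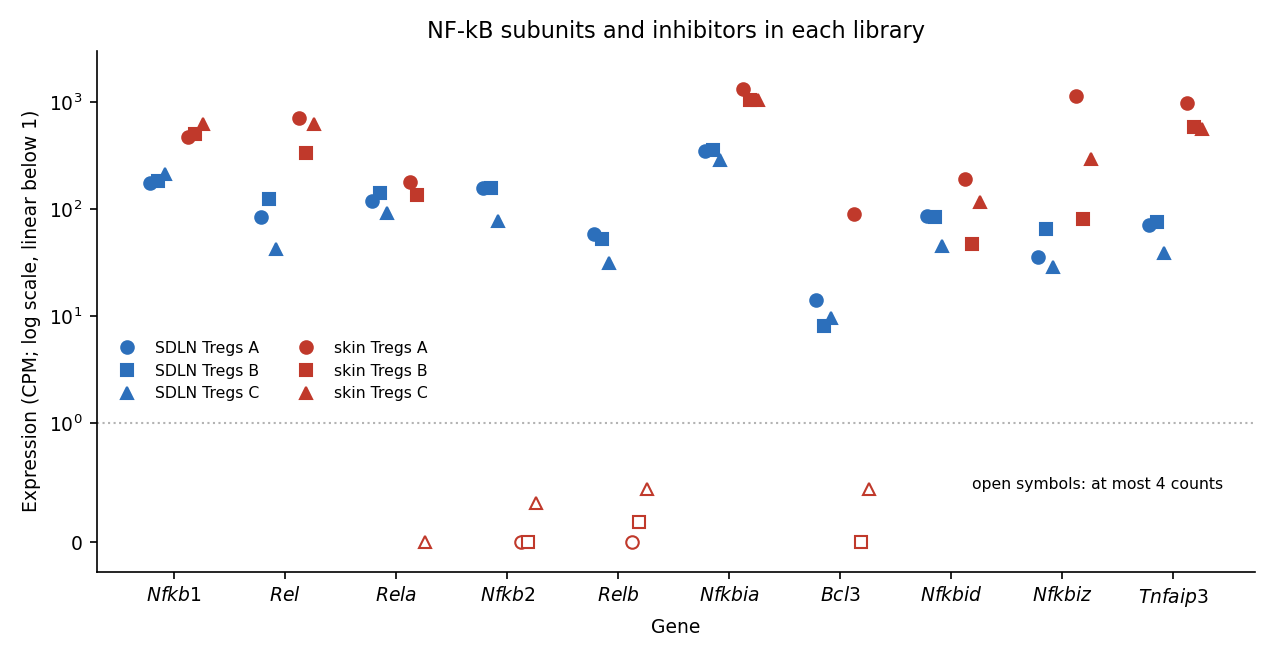
Expression of the 10 genes in each library, in CPM on an axis that is logarithmic above 1 and linear below it, with SDLN Tregs in blue, skin Tregs in red and one symbol per library letter. Nfkb1, Rel, Nfkbia, Nfkbiz and Tnfaip3 lie higher in all 3 skin libraries than in any SDLN library, while Nfkb2 and Relb have at most 4 counts in skin (open symbols).

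**Figure D2:**
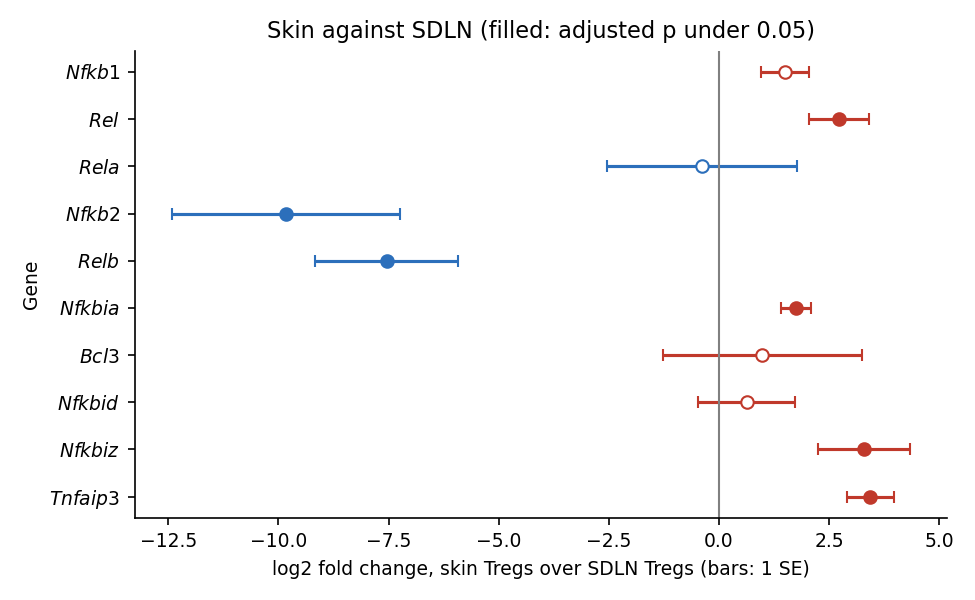
Fitted log2 fold change of each gene, skin Tregs over SDLN Tregs, with bars of 1 SE and filled points for an edgeR adjusted p under 0.05. The bars are narrow for Nfkbia (SE 0.333) and wide for Nfkb2, Rela and Bcl3 (SE 2.59, 2.16 and 2.26), which had no counts in at least one skin library.

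Of the canonical subunits, Rel had the largest fitted fold change. Rel (ENSMUSG00000020275, chr11:23736847-23770970, minus strand, GRCm38), which encodes c-Rel, was at 84.9, 123 and 42.4 CPM in the SDLN libraries and at 710.4, 336 and 618 CPM in the skin libraries. The lowest skin library was above the highest SDLN library. The means were 555 ± 195 CPM in skin and 83.6 ± 40.6 in SDLNs (SD, n = 3 each), a log2 fold change of 2.73 (SE 0.67, edgeR adjusted p = 0.0175). The call was lost without SDLN Tregs A, SDLN Tregs C or skin Tregs C (adjusted p = 0.102, 0.0593 and 0.0605 by edgeR), and when no gene was filtered out (adjusted p = 0.118).

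Nfkb1 (ENSMUSG00000028163, chr3:135584655-135691547, minus strand), the source of p50, was at 176, 184 and 212 CPM in the SDLN libraries and at 471, 498 and 619 CPM in the skin libraries. The groups did not overlap and the skin libraries were within 1.32-fold of each other. Its means were 529 ± 79.0 and 191 ± 19.1 CPM, and the log2 fold change of 1.50 (SE 0.54) did not pass the threshold (edgeR adjusted p = 0.0702). It passed in 6 of 14 alternatives, among them the fit without skin Tregs A (edgeR adjusted p = 0.0137) and DESeq2 (adjusted p = 1.12e-05).

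Rela (ENSMUSG00000024927, chr19:5637483-5648130, plus strand), the main activating partner of p50, varied from one skin library to the next. It was at 118, 141 and 91.5 CPM in the SDLN libraries, and at 178, 135 and 0 CPM in the skin libraries. Skin Tregs A (668 counts) was above the SDLN range and skin Tregs B (1588 counts) within it, whereas skin Tregs C had no count, which allows up to 0.332 CPM there. The log2 fold change was -0.39 (SE 2.16, edgeR adjusted p = 0.960) and became 0.076 without skin Tregs C and -5.17 with limma voom with quality weights.

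The non-canonical subunits were nearly absent from the skin libraries. Nfkb2 (ENSMUSG00000025225, chr19:46304320-46312385, plus strand), the source of p52, was at 158, 158 and 76.3 CPM in the SDLN libraries. In the skin libraries it had 0, 0 and 3 counts. Summed over libraries this was 3 of 24523895 counts in skin and 33466 of 236201482 in SDLNs, a level 1158-fold lower in skin with a 95% exact interval of 396 to 5617 that covers counting error only. The fitted log2 fold change of -9.83 (SE 2.59, edgeR adjusted p = 0.0233) depends on the prior count and is not a measured bound. It was -15.70 without skin Tregs C, which held all 3 skin counts. The call was lost on leaving out any SDLN library (adjusted p = 0.0613 to 0.0785). Psd, which overlaps Nfkb2 on the other strand, had 452, 366 and 171 counts in the SDLN libraries and 0, 1 and 4 in the skin libraries, and no strand setting is stated for the counting.

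Relb (ENSMUSG00000002983, chr7:19606217-19629438, minus strand), the partner of p52, was at 58.4, 51.9 and 31.1 CPM in the SDLN libraries and had 0, 2 and 4 counts in the skin libraries. No skin library came near the SDLN range. The summed level was 208-fold lower in skin (exact 95% interval 95.6 to 567), with a fitted log2 fold change of -7.54 (SE 1.63, edgeR adjusted p = 0.0112). Unlike that of Nfkb2, this call held in all 13 alternatives without a replicate block in which Relb was tested, the omission of each library among them. Over these omissions the log2 fold change ran from -8.91 (without skin Tregs C, which held 4 of the skin counts) to -7.24.

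Per unit of transcript length the makeup of the subunits was different in the tissues. Rel gave 9.98%, 13.2% and 7.30% of the summed TPM of the 5 subunits (counts per unit of length, scaled to a fixed sum, on the union of a gene's exons) in the SDLN libraries, and 49.5%, 34.5% and 61.6% in the skin libraries. Nfkb2 gave 30.3%, 27.4% and 21.4% in the SDLN libraries and 0%, 0% and 0.0540% in the skin libraries. The TPM of Rel was 0.296, 0.361 and 0.190 of that of Rela in SDLN Tregs, and 1.64 and 1.02 times it in skin Tregs A and B, where Rela was detected. The groups did not overlap in the Rel share, the Nfkb2 share or this ratio, and none of them was tested. The shares of Nfkb1 and Rela overlapped.

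**Figure D3:**
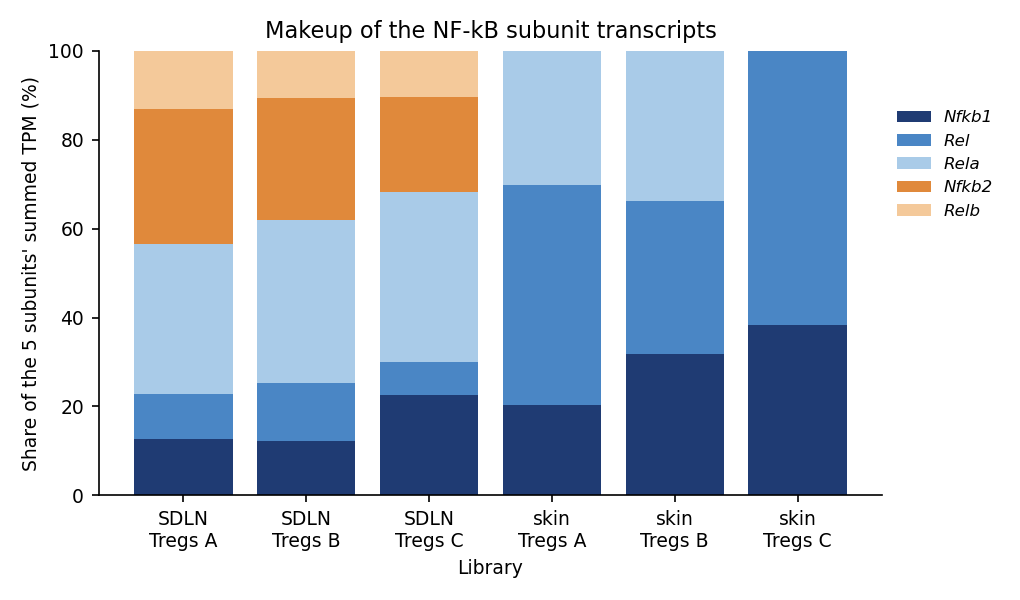
Share of each NF-kB subunit gene in the summed TPM of the 5 subunits, in percent, with one stacked bar per library. Nfkb2 and Relb (orange) hold 31.7% to 43.5% of the SDLN bars and at most 0.139% of the skin bars, and Rel (middle blue) holds 34.5% to 61.6% of the skin bars.

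Among the inhibitors, Nfkbia (ENSMUSG00000021025, chr12:55489410-55492647, minus strand) had the highest level per length in both tissues and the most even one in skin. It was at 350.1, 355 and 286 CPM in the SDLN libraries and at 1316, 1037 and 1045 CPM in the skin libraries. All skin libraries were far above the SDLN range and within 1.27-fold of each other. The means of 1133 ± 159 and 330.3 ± 38.3 CPM gave a log2 fold change of 1.75 (SE 0.33, edgeR adjusted p = 0.00710). This gene carries the single match printed above, close to its start. Its call held in 13 of 14 alternatives and was lost when no gene was filtered out (adjusted p = 0.176).

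Tnfaip3 (ENSMUSG00000019850, chr10:19000910-19015657, minus strand) encodes A20, an enzyme that edits ubiquitin chains on signalling proteins and shuts off the path to NF-kB upstream of IkB. It was at 71.0, 75.5 and 38.9 CPM in the SDLN libraries and at 972, 577 and 556 CPM in the skin libraries. The groups were well apart, with means of 702 ± 234 in skin and 61.8 ± 20.0 CPM in SDLNs. The log2 fold change was 3.43 (SE 0.53, edgeR adjusted p = 0.00386), and Tnfaip3 was called in all 14 alternatives. Its TPM was 0.0452, 0.0474 and 0.0303 of that of Nfkbia in the SDLN libraries and 0.165, 0.124 and 0.118 of it in the skin libraries, again with no overlap. Other TPM ratios of members did overlap. Nfkbia over Nfkb1 was 10.1 to 14.9 in SDLNs and 12.6 to 20.96 in skin. Nfkbiz over Nfkbia was 0.0318 to 0.0582 in SDLNs and 0.0249 to 0.275 in skin. Rel over Nfkb1 was barely apart (up to 1.083 in SDLNs, from 1.089 in skin). Nfkb2 over Nfkb1 and Tnfaip3 over Nfkb1 did not overlap. None of these ratios was tested.

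The nuclear IkB proteins Bcl3, IkBNS (from Nfkbid) and IkBzeta (from Nfkbiz) bind NF-kB on DNA and tune which genes it acts on, and their genes were uneven over the skin libraries. Nfkbiz (ENSMUSG00000035356, chr16:55811375-55838899, minus strand) was at 35.6, 64.4 and 28.4 CPM in the SDLN libraries and at 1128, 80.4 and 291 CPM in the skin libraries, a 14.0-fold range within skin. Skin Tregs A was far higher than the other two, and skin Tregs B was only just above SDLN Tregs B. The log2 fold change was 3.30 (SE 1.04, edgeR adjusted p = 0.0451). It was 2.15 without skin Tregs A (adjusted p = 0.118), and the call was lost in 10 of 14 alternatives.

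Nfkbid (ENSMUSG00000036931, chr7:30421732-30428746, plus strand), whose product is known to help Treg precursors switch on Foxp3, was at 86.1, 83.9 and 45.2 CPM in SDLNs and at 192, 47.2 and 116 CPM in skin. The groups overlapped. Its log2 fold change was 0.63 (SE 1.10, edgeR adjusted p = 0.816), and it was called in none of its 14 alternatives.

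Bcl3 (ENSMUSG00000053175, chr7:19808462-19822770, minus strand), a partner of p50 and p52 dimers, was at 14.0, 8.01 and 9.59 CPM in SDLNs. In skin Tregs A it was at 89.6 CPM (336 counts), and in skin Tregs B and C it had 0 and 4 counts. A single skin library was therefore above the SDLN range, and the other two were below it. The log2 fold change was 0.99 (SE 2.26, edgeR adjusted p = 0.878), and it turned to -5.60 without skin Tregs A (adjusted p = 0.0328) and to -3.54 with limma voom with quality weights. The antisense gene Gm16175 that overlaps it had 0, 2 and 1 counts in the SDLN libraries and 0 in each skin library.

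Skin Tregs A was the highest skin library for 7 of the 10 genes (Rel, Rela, Nfkbia, Bcl3, Nfkbid, Nfkbiz and Tnfaip3), and was also the one with the highest myeloid and digestion sums. It was the smallest library as well, with 3748669 counts and the fewest genes at 1 CPM (2911). The share of all genes for which it was the highest was not counted, and no link between these traits was tested. Skin Tregs B, which held Foxp3 and Cd4, was compared alone with the SDLN libraries, a choice made after seeing the data. That fit takes its spread from the SDLN libraries alone, with none from skin, so its calls are not used here and its log2 fold changes are given. They were 2.09 for Rel, 1.71 for Nfkbia, 3.29 for Tnfaip3, 1.43 for Nfkb1 and 0.99 for Nfkbiz. Nfkb2, Relb and Bcl3 had 0, 2 and 0 counts in that library.

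Ranked by median TPM, the order of the 10 genes in SDLN Tregs was Nfkbia, Rela, Nfkbid, Nfkb2, Nfkb1, Relb, Rel, Tnfaip3, Nfkbiz and Bcl3. Nfkbia (498 to 668 TPM) did not overlap Rela (83.5 to 139 TPM), while each later neighbour in the order overlapped the next. In skin Tregs the order was Nfkbia, Rel, Tnfaip3, Nfkbiz, Nfkbid, Rela, Nfkb1, Bcl3, Relb and Nfkb2. Nfkbia (1846 to 2214 TPM) again stood clear of the rest, Rel (129 to 258 TPM) and Tnfaip3 (224 to 364 TPM) overlapped, and so did the neighbours that followed, except for Nfkb1 (106 to 149 TPM) and Bcl3 (0 to 98.1 TPM). Rel moved from rank 7 to rank 2 and Tnfaip3 from rank 8 to rank 3, whereas Nfkb2 moved from rank 4 to rank 10.

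Since so many genes had no or few counts in skin, the 10 genes were set beside genes of like level in SDLN Tregs. Rel, Relb, Nfkbid, Nfkbiz and Tnfaip3 belong with 3649 genes whose SDLN mean was 30 to 100 CPM, of which 8.63% were over 3 counts in every skin library. All of these members but Relb were over it. Nfkb1, Rela and Nfkb2 belong with 1760 genes at 100 to 300 CPM, of which 28.1% were over 3 counts in every skin library and 8.47% in none. Nfkb1 was in the former class and Nfkb2 in the latter. Nfkbia belongs with 485 genes at 300 to 1000 CPM, and 5.98% of these were higher in every skin library than in any SDLN library, as Nfkbia was. The fitted biological coefficient of variation over all genes tested was 1.43.

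**Figure D4:**
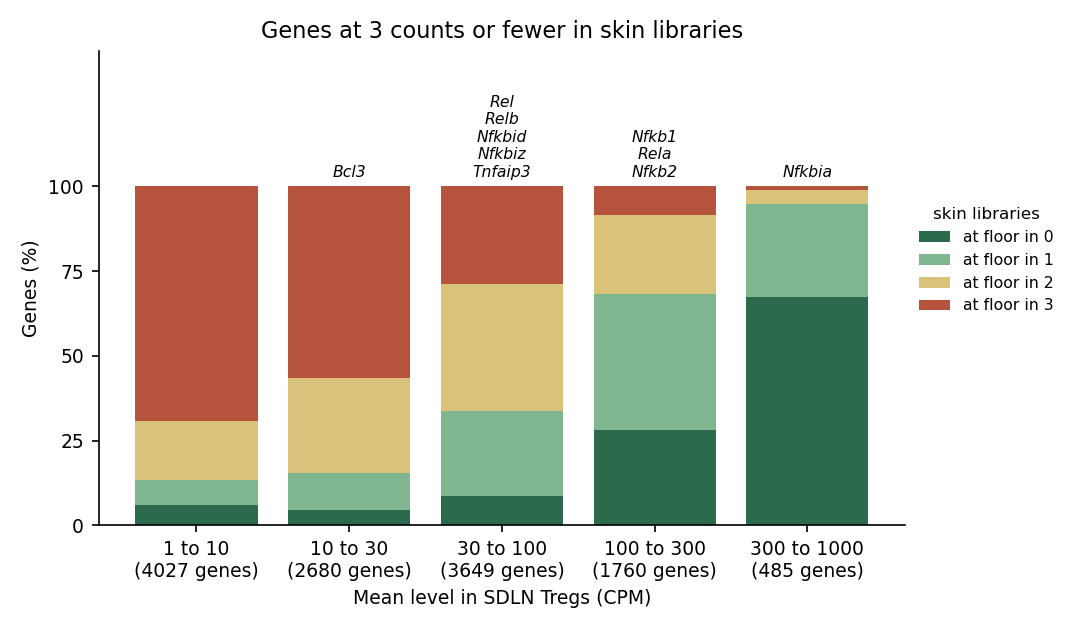
Percent of genes with 3 counts or fewer (at floor) in 0, 1, 2 or 3 skin libraries, in classes of mean SDLN level in CPM, with the members of each class named above its bar. The share at floor in all 3 skin libraries falls from 69.2% at 1 to 10 CPM to 1.03% at 300 to 1000 CPM.

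Of 35 other genes of the pathway, all tested, 0 were called higher in skin by edgeR, against 1.04% of all genes tested, 11 were called lower, against 45.3%, and 24 were not called. DESeq2 called 0 higher too, against 2.98% of all genes, and 0 were higher at an unadjusted p under 0.05 by edgeR, against 201 of the 13572 genes tested. Without skin Tregs A 4 were called higher, against 2.04% of all genes in that fit. Without skin Tregs B 1 was called higher and 20 lower, against 1.21% and 48.9%. The median log2 fold change was -0.58, beside -2.21 over all genes tested. In skin Tregs A only 3 of the 35 were over 3 counts (8.57%, against 20.9% of all genes tested), in skin Tregs B 19 (54.3%, against 41.8%) and in skin Tregs C 17 (48.6%, against 36.9%). The 3 in skin Tregs A, named here after their values were seen, were Cyld, Tnip3 and Tax1bp1. Tax1bp1 was the one pathway gene over 3 counts in every skin library, at 382, 485 and 410.4 CPM in the SDLN libraries and at 754, 393 and 303 CPM in the skin libraries.

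Of the 11 genes called lower, 10 had 3 counts or fewer in every skin library, as had 5801 of the 6142 genes called lower over all genes tested. Prkcq, the kinase that carries the T cell receptor signal to NF-kB, was at 283, 314 and 260.1 CPM in the SDLN libraries and at 0, 0.170 and 0.111 CPM in the skin libraries (edgeR adjusted p = 0.00356). Map3k7, which encodes the kinase TAK1, was at 12.7, 19.8 and 22.7 CPM in the SDLN libraries and at 0 in the skin libraries (adjusted p = 0.00322), and its adaptor gene Tab1 was at 30.7, 38.8 and 37.4 CPM and at 0, 0 and 0.111 CPM (adjusted p = 0.00502). Rnf31 and Rbck1, which encode parts of the complex that builds linear ubiquitin chains, had means of 43.9 ± 18.1 and 172 ± 48.6 CPM in SDLNs and were at no more than 0.111 CPM in skin (adjusted p = 0.00382 and 0.00544). These 5 genes were present in each SDLN library and at the floor in each skin library, the pattern that also held for Nfkb2.

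**Figure D5:**
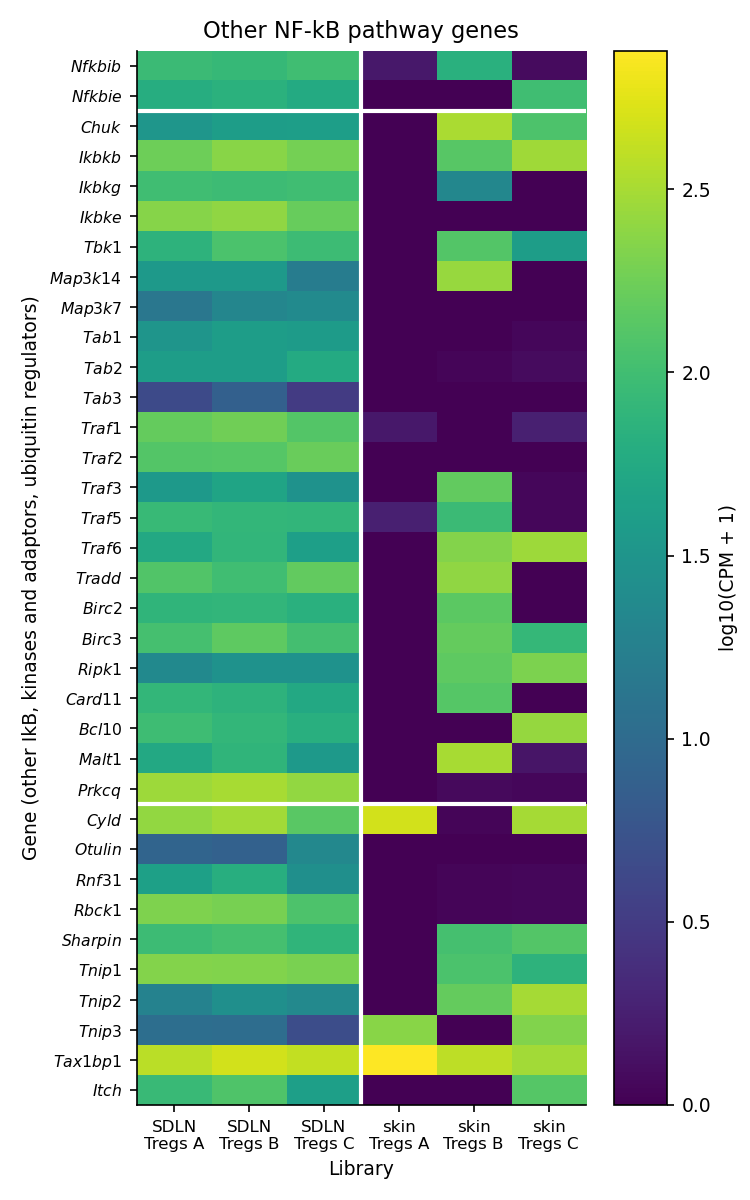
Expression of the 35 other NF-kB pathway genes in each library as log10(CPM + 1), in 3 blocks from top to bottom for other IkB genes, kinases and adaptors, and ubiquitin regulators. The SDLN columns are even, while most genes are dark in skin Tregs A and on or off from library to library in skin Tregs B and C.

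Of 28 genes widely known as NF-kB targets, 23 were tested, 4 were called higher in skin, against 1.04% of all genes tested, 5 were called lower, against 45.3%, and 14 were not called (median log2 fold change 0.29). Without any one SDLN library 1 was called higher and 2 or 3 lower, in fits that called 0.564% to 0.640% of all genes higher and 40.1% to 41.0% lower. Il1b, the gene of a cytokine made mostly by myeloid cells, had no counts in SDLN Tregs and was at 609, 623 and 384 CPM in the skin libraries (edgeR adjusted p = 0.00322). Of the chemokine genes, Ccl4 was at 6.27, 5.77 and 2.48 CPM in SDLN Tregs and 638, 95.7 and 144 CPM in skin Tregs (log2 fold change 5.66, SE 1.28, adjusted p = 0.0125), and Ccl3 was at 0.487 ± 0.396 and 97.7 ± 45.0 CPM (7.59, SE 1.85, adjusted p = 0.0165). Cd83, a surface protein of activated lymphocytes and dendritic cells, was at 489, 471 and 576 CPM in SDLN Tregs and 1261, 1068 and 1338 CPM in skin Tregs (1.25, SE 0.37, adjusted p = 0.0359). Each of these 4 genes was higher in all 3 skin libraries than in any SDLN library. The pattern held for 5 of the 23, against 2.39% of all genes tested. Icam1, named after its values were seen, was the fifth, at 48.4, 69.9 and 30.2 CPM against 502, 229 and 89.2 CPM, and was not called (adjusted p = 0.117).

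Of the targets called lower, Tnf, Cd40 and Cxcl10 had no counts in any skin library, beside 15.8 ± 7.18, 0.622 ± 0.0689 and 1.81 ± 1.45 CPM in SDLNs (edgeR adjusted p = 0.00344, 0.00603 and 0.0238). The floor of the skin libraries is 0.255 to 0.800 CPM, so that the level of Cd40 in SDLNs was under the floor of skin Tregs A and above that of skin Tregs B and C. Vcam1 was at 3.39 ± 2.43 CPM in SDLNs and 0.142 ± 0.246 CPM in skin (adjusted p = 0.0283). Ltb, a ligand gene of the non-canonical pathway, was at 1842, 1197 and 3526 CPM in SDLN Tregs and 436, 205 and 480.0 CPM in skin Tregs, with no overlap (log2 fold change -2.58, SE 0.64, adjusted p = 0.0185). Each of these 5 genes was lower in all 3 skin libraries than in any SDLN library. The pattern held for 6 of the 23, against 53.6% of all genes tested. Myc, named after its values were seen, was the sixth, at 269, 267 and 225 CPM against 0, 69.5 and 183 CPM, and was not called (log2 fold change -1.33, edgeR adjusted p = 0.787).

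Over the 6 libraries, the genes whose log2(CPM + 1) followed Nfkbia most closely were Ctsh, a lysosomal protease gene (Pearson r = 0.998), Tnfaip3 (0.998) and H2-Eb1, an MHC class II gene (0.997). H2-Eb1 was at 17.8, 11.9 and 6.94 CPM in SDLN Tregs and at 4067, 2075 and 1383 CPM in skin Tregs, and Ctsh was at 6.71, 5.58 and 3.70 CPM and at 594, 230.1 and 252 CPM. For Rela the closest were Pdk3 (0.999), Lasp1 (0.998) and Actr10 (0.998), each at 8 counts or fewer in skin Tregs C. These values describe 6 libraries in 2 groups, and 101 of the genes tested had an r above 0.95 with Nfkbia and 235 with Rela.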

How the data were processed

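RNA-seq libraries of skin and SDLN Tregs (3 each, named by their titles, since the tissue field reads skin throughout) were compared. The authors sorted cells from digested tissue after CD45 bead enrichment. According to their methods and processing notes, reads were trimmed with Trimmomatic (0.36), mapped to GRCm38 with STAR (2.5.2b) and counted over exons with featureCounts (Subread 1.5.2). The annotation release and strand setting are not given in the sources used here. The authors deposited these as unnormalized counts, keyed by Ensembl identifier. Where the libraries come from separate pools of animals, p-values measure the spread between pools.

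GENCODE M21 named 48970 of 49315 genes. CPM (counts scaled to 1000000) used the library total, and TPM the union exon length. PCR duplicates could not be recognised, so floors (3 counts) and intervals cover counting error only. Counts were tested with edgeR (4.0.16, quasi-likelihood test, filterByExpr, TMM, tissue as the only term) in R (4.3.3), adjusted by Benjamini-Hochberg over 13572 genes at a threshold of 0.05. SE came from the F statistic. The scripts were tested on simulated data. Alternatives were DESeq2 (1.42.0), limma (3.58.1) voom with sample quality weights, other scalings and filters, equal totals, omission of each library and, added after seeing the data, skin Tregs B alone and a block by column letter. No 2 libraries were identical. The members and lists were chosen with earlier results of these data known. The text names all 10 members, the markers used to check labels, up to 5 called genes per direction of each list by adjusted p, and the 3 genes most like Nfkbia and Rela.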

Additional observations from a re-analysis of the deposited data

How the results depend on the processing

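Leaving aside the 2 fits added after seeing the data, Tnfaip3 and Relb were called in every alternative in which they were tested (14 and 13), Nfkbia in 13 of 14, Rel in 10 of 14, Nfkb2 in 10 of 13, Nfkb1 in 6 of 14 and Nfkbiz in 4 of 14. Without a filter on low counts, 1 member (Tnfaip3) was called higher in place of 4, when the share of all genes called higher was 0.309% in place of 1.04%. With at least 10 counts asked of every library, 6 members were left to test and 0 were called lower, as for the pathway list, of which 1 gene was left, while the target list had 1 called higher and 1 lower of the 6 left (all genes 5.80% and 0.645%). With limma voom and its sample quality weights, 17 pathway genes were called lower in place of 11, 2 targets were called higher in place of 4 (all genes 53.0% lower and 0.936% higher), Bcl3 reversed to -3.54 and Rela was at -5.17. With counts drawn down to the smallest total, 2 targets were called lower in place of 5 (all genes 38.5%). On leaving out 1 library at a time, 2 to 4 members were called higher and 1 to 3 lower, 0 to 4 pathway genes higher (4 without skin Tregs A, 1 without skin Tregs B) and 8 to 20 lower (20 without skin Tregs B), and 1 to 4 targets higher and 2 to 6 lower, while 0.564% to 2.04% of all genes were called higher and 40.1% to 48.9% lower. Over these omissions the log2 fold change of Rela ran from -0.92 to 0.076 and that of Bcl3 from -5.60 to 1.55. With skin Tregs B alone against the SDLN libraries, a fit added after seeing the data, the spread came from the SDLN libraries alone. Its calls, given for completeness, were 9 pathway genes higher and 17 lower and 9 targets higher and 7 lower, when 1951 (10.6%) and 8491 (46.0%) of 18473 genes were called higher and lower, and Rela (0.28), Bcl3 (-12.37) and Nfkbid (-0.54) reversed. The cause of these changes was not tested. The median log2 fold change of all genes tested, -2.21, was -2.33 with TMMwsp, -4.68 with the weighted limma voom fit, -3.27 without a filter, 0.077 under the filter of 10 counts per library, -1.30 with counts drawn down, -1.99 to -1.69 without one SDLN library, and -6.10, -7.41 and -7.20 without skin Tregs A, B and C. No member changed direction with DESeq2 size factors, TMMwsp or library size alone.

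Depth limits the skin libraries, where a count of 0 allows up to 0.255 to 0.800 CPM. No source says that a column letter pairs libraries, and same-letter deviations from the group means correlated at 0.046, -0.010 and 0.091 for A, B and C over 13572 genes, with skin Tregs A closest to SDLN Tregs B (0.051). A fit with the letter as a replicate block, added after seeing the data, called 2 members higher (Nfkbia and Tnfaip3) and 0 lower, 0 pathway genes higher and 7 lower, and 1 target higher and 6 lower, when 0.449% of all genes were called higher and 41.5% lower, and Bcl3 reversed to -3.95. Rel, Nfkb2, Relb and Nfkbiz were not called in it (edgeR adjusted p = 0.196, 0.0921, 0.101 and 0.389).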
